A study of Drosophila melanogaster with 9 samples.

Results

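Sperm chromatin packaging was followed here through 7 genes of the 17575 in the deposited count table: the protamine genes *ProtA* (also named *Mst35Ba*) and *ProtB* (also *Mst35Bb*), the protamine-like genes *Mst77F* and *Prtl99C*, the transition protein gene *Tpl94D*, and the testis HMG-box genes *tHMG1* and *tHMG2*. The genes were chosen by name, with earlier results of these data known, and each of the 7 names matched a single gene. RNA came from whole testes of *Drosophila melanogaster* in 3 genotypes, control, *U2af38* RNAi and *SRPK* RNAi, with 3 biological replicates of each. The males were 1 to 3 days old and were raised at 25°C. *U2af38* encodes the small subunit of the U2AF splicing factor, and *SRPK* encodes a kinase of the arginine- and serine-rich domains found in many splicing proteins. The knockdowns were driven by *bam-GAL4*, which acts in late spermatogonia and spermatocytes, so somatic cells and the earliest germ cells of the same testes were not targeted. Controls were males of the parental *bam-GAL4* stock or brothers of the knockdown males, and which of these a library came from was not stated. Each library was made from a pool of testes. A single RNAi line per gene was carried through the experiments, and which line this was is not given in the sources used here.

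In most cells DNA is wrapped around histones. During the last phase of sperm formation, after meiosis, the histones of the spermatid nucleus are removed, transition proteins take their place for a short time, and small basic proteins of the protamine type then pack the DNA of the mature sperm. In *Drosophila*, the genes for these proteins are transcribed largely before meiosis, in spermatocytes, and the mRNAs are stored and translated days later in elongating spermatids. The amount of mRNA in a testis therefore does not give the amount of protein in sperm, which was not measured here.

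All 7 genes are short and protein-coding. Their positions in dm6 were identical in the deposited table and in the Ensembl annotation. *ProtA* (FBgn0013300) lies on chromosome 2L from 14879050 to 14881652, and *ProtB* (FBgn0013301) follows on the same strand from 14882101 to 14883721, 448 bp away. Both have 3 exons, with a first intron of 1871 bp in *ProtA* and 893 bp in *ProtB* and a second intron of 49 bp in each. They encode paralogous proteins of 146 and 144 residues. *tHMG1* (FBgn0038978, chromosome 3R, 22491829 to 22492381) and *tHMG2* (FBgn0038979, chromosome 3R, 22492953 to 22493746) are a second pair of neighbours, 571 bp apart on the same strand, and encode 126 and 134 residues. *tHMG1* is the only member without an intron.

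The other members stand alone. *Mst77F* (FBgn0086915, chromosome 3L, 20816901 to 20818027) has 1 intron of 62 bp, encodes 215 residues and lies inside *Pka-R1* on the opposite strand, with no shared exonic base. *Tpl94D* (FBgn0051281, chromosome 3R, 22966284 to 22967842) encodes 164 residues. *Prtl99C* (FBgn0039707, chromosome 3R, 29835950 to 29837447) encodes up to 201 residues and shares 248 bp of exon with *CG42592* on the opposite strand. The counting used strand, so reads of such a pair were assigned separately. Fragments that aligned to several places were not counted, so the levels of *ProtA* and *ProtB*, which are paralogs, and of *Mst77F*, which has Y-linked copies, are uncertain to the extent that their copies are identical.

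**Figure D1:**
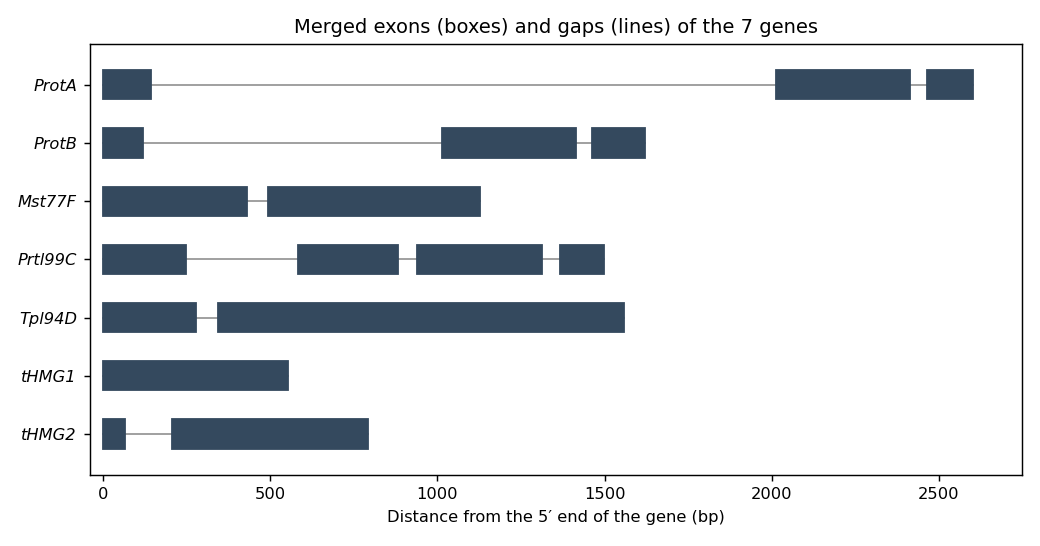
Merged exons (boxes) and the gaps between them (lines) of the 7 genes, drawn to scale by distance in bp from the 5′ end of each gene. *ProtA* has the longest gap, 1871 bp, and *tHMG1* has none.

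Between 18497748 and 30002574 fragments were counted per library, and each member was covered by 2275 to 62767 fragments in every library. The knockdowns were visible in the counts. *U2af38* fell to a mean of 3.31 ± 0.97 CPM (SD, n = 3) in *U2af38* RNAi from 40.3 ± 2.46 in control, and *SRPK* fell to 67.2 ± 2.40 CPM in *SRPK* RNAi from 268 ± 17.03. In *U2af38* RNAi, *SRPK* rose to 619 ± 35.7 CPM (log2 fold change 1.21, adjusted p = 2.92e-09, edgeR). CPM gives the fragments of a gene as a part of all those counted in its library, here scaled with edgeR's TMM factors. Transcripts of 6 testis identity genes summed to 8075 to 9076 CPM in control, 3213 to 3265 in *U2af38* RNAi and 6183 to 7340 in *SRPK* RNAi. Transcripts of 5 accessory gland genes, which belong to a neighbouring organ, summed to between 10.1 and 1105 CPM. They were under 50 CPM in control 2, *U2af38* RNAi 2, *U2af38* RNAi 3 and *SRPK* RNAi 1 and above it in the other libraries, in all 3 genotypes. Of these genes 0 passed edgeR's test in either knockdown against control, 0 at an unadjusted p under 0.05 and 0 with DESeq2.

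In control testes, the 7 transcripts were among the more abundant. Per kb of exon, each stood above at least 95.8% of the 14941 genes that passed the filter on low counts. *Mst77F*, a linker-histone-like protein needed for shaping the sperm nucleus, was the highest, at 2384 ± 81.01 CPM per kb (SD, n = 3). *ProtB* followed at 1404 ± 43.8 CPM per kb. *tHMG1* was read at 866 ± 26.1 and *tHMG2* at 747 ± 18.6 CPM per kb. *ProtA* came next at 671 ± 32.3 CPM per kb, although it is the twin of *ProtB*. *Tpl94D* stood at 489 ± 23.4 CPM per kb, and *Prtl99C*, which also becomes part of mature sperm chromatin, was the lowest at 233 ± 10.3. No neighbours in this order overlapped over the 3 control libraries. The libraries had been selected for long fragments, and how this affects the level of short transcripts was not tested. Exon length was 553 bp in *tHMG1*, 654 in *tHMG2*, 679 in *ProtB* and 683 in *ProtA*. It was 1053 bp in *Prtl99C*, 1065 in *Mst77F* and 1491 in *Tpl94D*. Separation of the control libraries does not measure such an effect, so the order per kb between short and long transcripts is uncertain.

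The order changed with genotype. In *U2af38* RNAi, *tHMG1* (522 ± 26.6 CPM per kb) stood above *ProtB* (484 ± 10.6), and *Tpl94D* (67.9 ± 1.89) was lowest, below *Prtl99C* (90.7 ± 2.81). In *SRPK* RNAi, the order was that of control except that *ProtA* (549 ± 65.2 CPM per kb) stood above *tHMG2* (486 ± 27.3). Here too, no neighbours in the order overlapped over the 3 libraries of a genotype, but some gaps were very narrow. In *U2af38* RNAi the lowest *tHMG1* library was at 492.4 and the highest *ProtB* library at 492.2 CPM per kb. In *SRPK* RNAi the lowest *ProtA* library was at 507.1 and the highest *tHMG2* library at 506.2 CPM per kb.

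**Figure D2:**
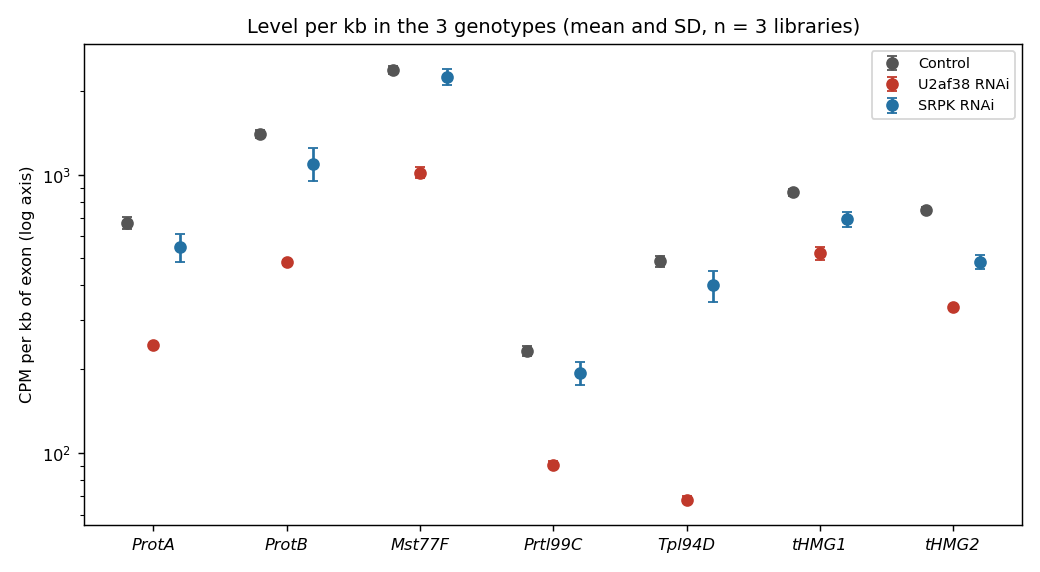
Level of each transcript in CPM per kb of exon on a log axis, as the mean and SD of 3 libraries for control, *U2af38* RNAi and *SRPK* RNAi. *Mst77F* is highest in each genotype, and *Tpl94D* drops from 489 in control to 67.9 in *U2af38* RNAi.

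The first comparison asked whether the RNA level of the sperm chromatin genes was altered when *U2af38* was depleted. Counts over exons in rRNA-depleted total RNA do not separate spliced from unspliced RNA, so spliced mRNA alone was not measured. All 7 transcripts were lower in *U2af38* RNAi than in control, as were 37.5% of the 14941 genes tested at an adjusted p under 0.05, while 44.7% were higher. For each of the 7, the highest *U2af38* RNAi library was below the lowest control library, as for 38.5% of all genes. The summed level of the 7 was 5720 to 5996 CPM in control and 2236 to 2351 CPM in *U2af38* RNAi. *Tpl94D* fell most and *tHMG1* least. The paper reports that *U2af38* RNAi germ cells stopped at the spermatocyte stage, before meiosis, so that later stages were absent. In *SRPK* RNAi it reports germ cells of normal appearance at every stage, but immotile sperm that did not leave the testis. Males of both knockdowns were sterile, with no mature sperm in their seminal vesicles. Testes of the knockdowns thus differed in the stages they held. In bulk testes, fewer cells of a stage and less RNA per cell cannot be told apart.

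The protamine pair fell side by side. *ProtA* reached 435, 461 and 479 CPM in control 1, 2 and 3, as against 164, 168 and 167 CPM in *U2af38* RNAi 1, 2 and 3. *ProtB* reached 929, 944 and 987 CPM in the control libraries, as against 321, 334 and 331 CPM in those with *U2af38* RNAi. The *U2af38* RNAi libraries lay within a few percent of each other and far below every control library for both. The log2 fold change was -1.46 for *ProtA* (SE 0.08, adjusted p = 2.94e-09, edgeR). It was -1.54 for *ProtB* (SE 0.09, adjusted p = 4.34e-09, edgeR). The p-values throughout are those of edgeR's quasi-likelihood F-test, adjusted by the method of Benjamini and Hochberg over all genes.

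The protamine-like genes moved by a similar amount. *Mst77F* reached 2443, 2610 and 2564 CPM in the control libraries, as against 1062, 1140 and 1047 CPM in those with *U2af38* RNAi. Its log2 fold change was -1.23 (SE 0.07, adjusted p = 5.11e-09, edgeR). *Prtl99C* reached 233, 247 and 255 CPM in the control libraries, as against 93.4, 98.9 and 94.1 CPM in those with *U2af38* RNAi. Its log2 fold change was -1.36 (SE 0.07, adjusted p = 1.82e-09, edgeR). These are the most and the least abundant of the 7 per kb in control, and 42.7% of the control level of *Mst77F* and 39.0% of that of *Prtl99C* were left.

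*Tpl94D* encodes a transition protein with an HMG box that is present in the spermatid nucleus only while histones are being replaced. Its transcript reached 706, 712 and 769 CPM in the control libraries, as against 99.0, 100.1 and 104 CPM in those with *U2af38* RNAi. The log2 fold change of -2.85 (SE 0.09, adjusted p = 2.78e-11, edgeR) left 13.9% of the control level. Its 95% interval, -3.04 to -2.66, lay apart from those of the 6 other members, which ran from -1.72 to -0.59.

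The HMG-box neighbours fell less. *tHMG1* reached 490, 484 and 463 CPM in the control libraries, as against 301, 292 and 272 CPM in those with *U2af38* RNAi. Its log2 fold change was -0.73 (SE 0.06, adjusted p = 2.84e-07, edgeR). *tHMG2* reached 483, 502 and 479 CPM in the control libraries, as against 219, 217 and 220 CPM in those with *U2af38* RNAi. Its log2 fold change was -1.16 (SE 0.06, adjusted p = 1.01e-09, edgeR). In control the pair was read at nearly equal CPM, and in *U2af38* RNAi every library had more *tHMG1* than *tHMG2*.

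**Figure D3:**
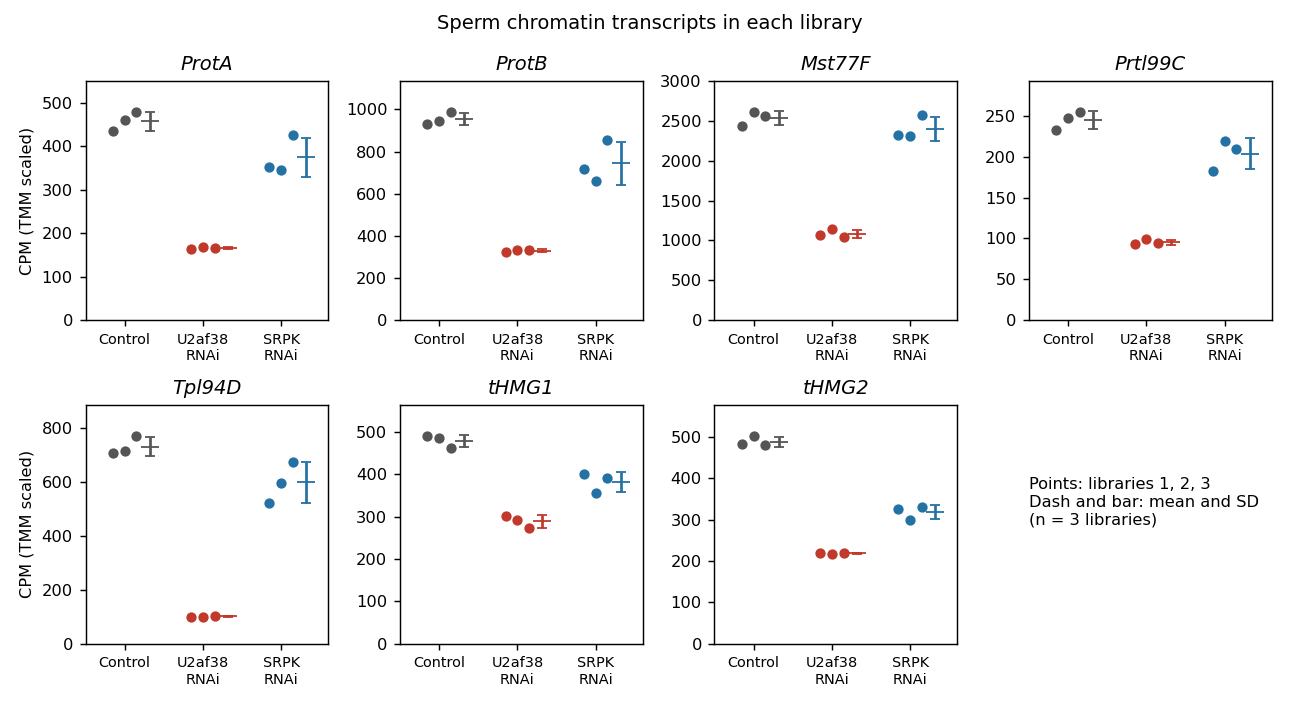
CPM of each of the 7 transcripts in every library, with the mean and SD of the 3 libraries of a genotype beside the points and each axis starting at 0. The *U2af38* RNAi libraries lie below all control libraries for every gene, and the *SRPK* RNAi libraries overlap with control only for *Mst77F*.

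The count of 7 of 7 has to be read against a transcriptome in which most genes differed, and in which the scaling therefore matters. The median log2 fold change was -1.36 over the members and 0.12 over all genes tested. With a minimum log2 fold change of 1 as the null, 6 members were lower, against 18.8% of all genes, and *tHMG1* was not called. On library size alone, without TMM scaling, the median of all genes moved to 0.76 and 6 members were lower. The exception was *tHMG1*, with a log2 fold change of -0.10 (adjusted p = 0.199, edgeR). The log2 fold changes of the others were then smaller as well, at -0.83 for *ProtA*, -0.90 for *ProtB*, -0.59 for *Mst77F*, -0.72 for *Prtl99C*, -2.21 for *Tpl94D* and -0.52 for *tHMG2*. Relative to the median of all genes, the 7 members then lay between -2.97 and -0.85. Scaled on ribosomal protein genes instead, the median of all genes moved the other way, to -0.33, and 7 members were lower. Their log2 fold changes were then larger in size, from -3.29 for *Tpl94D* to -1.18 for *tHMG1*. A change of scaling moves all genes of a comparison nearly alike. The distance from the median therefore stays the same and cannot test the scaling.

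In *SRPK* RNAi, the same transcripts were lower by a smaller amount, and 6 of 7 passed the test, against 21.1% of all genes tested that were lower and 20.3% that were higher. For these 6 the libraries did not overlap, as for 25.2% of all genes in that direction. The median log2 fold change was -0.31 over these 6, -0.29 over all 7 members and 0.01 over all genes. None passed edgeR's test with a minimum log2 fold change of 1, nor at an unadjusted p under 0.05 of that test, while 1.76% of all genes passed it as lower. *Mst77F* was not called, and *tHMG2* had the largest difference.

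*tHMG2* was read at 326, 298 and 331 CPM in the 3 *SRPK* RNAi libraries, all below the lowest control value of 479. Its log2 fold change was -0.62 (SE 0.05, adjusted p = 5.41e-06, edgeR), and 65.2% of the control level was left. *tHMG1* reached 400.1, 355 and 391 CPM in the *SRPK* RNAi libraries, and its log2 fold change was -0.33 (SE 0.06, adjusted p = 0.00139, edgeR). Both HMG-box genes were thus lower in each of the 3 *SRPK* RNAi libraries than in any control library.

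*ProtA* reached 353, 346 and 426 CPM in the *SRPK* RNAi libraries, and its log2 fold change was -0.29 (SE 0.08, adjusted p = 0.00945, edgeR). *ProtB* reached 718, 659 and 857 CPM in the *SRPK* RNAi libraries, and its log2 fold change was -0.36 (SE 0.08, adjusted p = 0.00476, edgeR). *SRPK* RNAi 3 was the high library for both and came close to control, where the lowest values were 435 for *ProtA* and 929 CPM for *ProtB*. Without *SRPK* RNAi 2, *ProtA* was no longer called (log2 fold change -0.23, adjusted p = 0.0600, edgeR).

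*Prtl99C* reached 182, 220 and 210 CPM in the *SRPK* RNAi libraries, and its log2 fold change was -0.26 (SE 0.07, adjusted p = 0.00799, edgeR). *Tpl94D* reached 522, 596 and 674 CPM in the *SRPK* RNAi libraries, and its log2 fold change was -0.29 (SE 0.08, adjusted p = 0.0144, edgeR). *Tpl94D* thus did not stand apart from the other members here, and its highest *SRPK* RNAi library lay just below its lowest control library. Its call was lost without control 3 (adjusted p = 0.0672, edgeR) and without *SRPK* RNAi 2 (adjusted p = 0.0508, edgeR).

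*Mst77F* was read at 2319, 2306 and 2572 CPM in *SRPK* RNAi, and its *SRPK* RNAi and control libraries overlapped. The log2 fold change was -0.08 (SE 0.07, adjusted p = 0.367, edgeR), with a 95% interval from -0.23 to 0.07. On library size alone its sign turned (0.03, adjusted p = 0.596, edgeR). On ribosomal protein genes it was -0.16 (adjusted p = 0.182, edgeR). A fall of more than 0.23 on the log2 scale lay outside the interval with TMM scaling, which does not include the uncertainty of the scaling itself.

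The *SRPK* RNAi libraries also varied more among themselves. For *ProtA*, *ProtB* and *Tpl94D* the SD was 11.9%, 13.6% and 12.8% of the mean in *SRPK* RNAi, and 4.82%, 3.12% and 4.77% in control. For *Mst77F* and both HMG-box genes it was 5.62% to 6.27% in *SRPK* RNAi. The accessory gland transcripts differed between the same libraries, at 15.1, 578 and 1105 CPM in *SRPK* RNAi 1, 2 and 3. With their level as a covariate, 7 members were lower in *U2af38* RNAi and 6 in *SRPK* RNAi than in control, and 7 were lower in the former knockdown than in the latter. These are the same numbers as without it. In the 4 libraries under 50 CPM alone, the members lay between -2.82 and -0.79 on the log2 scale for *U2af38* RNAi and between -0.63 and -0.17 for *SRPK* RNAi, each against control. Control and *SRPK* RNAi then had 1 library each, whose spread was assumed to be that between the *U2af38* RNAi libraries, and the limit of 50 CPM was chosen after the values were seen.

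The difference between the knockdowns, whose testes differed in the stages present, was tested directly. All 7 transcripts were lower in *U2af38* RNAi than in *SRPK* RNAi, against 37.6% of all genes tested that were lower and 42.3% that were higher. The libraries of the 2 genotypes did not overlap for any of them, as for 38.2% of all genes in that direction. *ProtA*, *ProtB*, *Mst77F* and *Prtl99C* had log2 fold changes between -1.18 and -1.10, each with an SE of 0.07 to 0.08 (largest adjusted p = 6.21e-08, edgeR). *Tpl94D* differed most, by -2.56 (SE 0.09, adjusted p = 8.68e-11, edgeR). *tHMG1* differed by -0.41 (SE 0.06, adjusted p = 6.74e-05, edgeR) and *tHMG2* by -0.54 (SE 0.05, adjusted p = 1.57e-06, edgeR). These 2 rested on the scaling, since on library size alone *tHMG1* turned to 0.11 (adjusted p = 0.134, edgeR) and *tHMG2* moved to -0.02 (adjusted p = 0.732, edgeR). With a minimum log2 fold change of 1, 4 members were lower, against 15.4% of all genes.

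**Figure D4:**
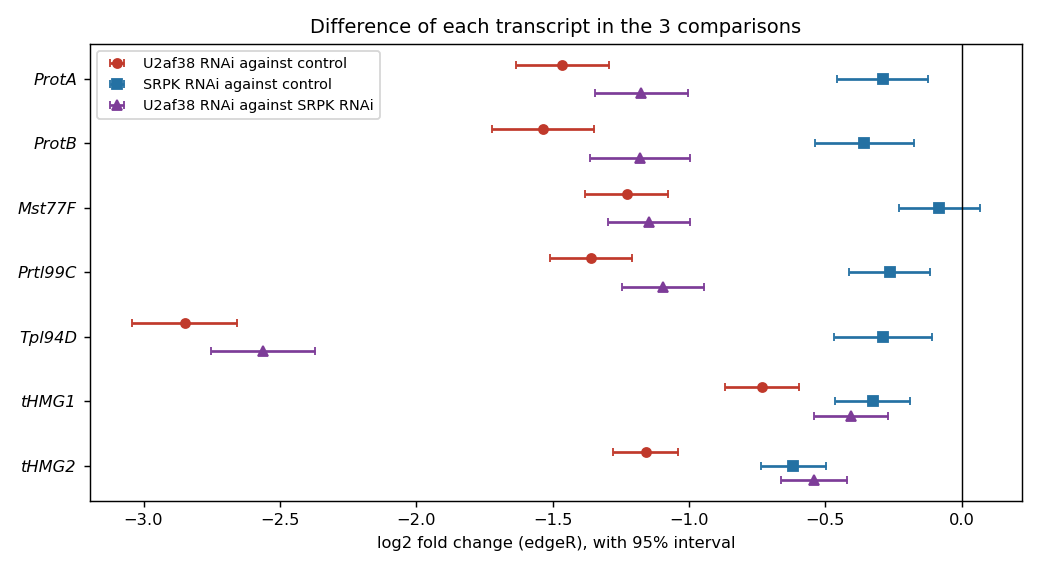
log2 fold change of each transcript from edgeR, with its 95% interval, in the 3 comparisons; a value below 0 means lower in the genotype named first. *Tpl94D* lies at -2.85 in *U2af38* RNAi against control, and the interval of *Mst77F* in *SRPK* RNAi against control includes 0.

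Ratios of members within a library do not depend on the scaling between libraries. With 3 libraries against 3, the exact two-sided permutation test cannot give a p below 0.1, and the adjusted p over the 9 ratio tests cannot fall below that either. The ratio of *Tpl94D* to *ProtA* plus *ProtB*, per kb of exon, was 0.236, 0.231 and 0.239 in control. It was 0.0933, 0.0910 and 0.0956 in *U2af38* RNAi, well under the control values in every library (exact permutation p = 0.1, adjusted 0.129). In *SRPK* RNAi it was 0.222, 0.271 and 0.240, which overlapped with control (exact permutation p = 0.7, adjusted 0.787).

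The ratio of *tHMG1* to *tHMG2* was 1.199, 1.141 and 1.142 in control. It was 1.62, 1.59 and 1.47 in the *U2af38* RNAi libraries, and those of *SRPK* RNAi had 1.45, 1.41 and 1.40. Both knockdowns thus lay above all control libraries, and *U2af38* RNAi lay above *SRPK* RNAi (exact permutation p = 0.1 and adjusted 0.129 for each of the 3 comparisons). The ratio of *ProtA* to *ProtB* moved little, with means of 0.478 ± 0.011 in control, 0.503 ± 0.005 in *U2af38* RNAi and 0.502 ± 0.018 in *SRPK* RNAi (SD, n = 3). All libraries of both knockdowns lay above those of control (exact permutation p = 0.1, adjusted 0.129 for each), and the knockdowns overlapped (exact permutation p = 1, adjusted 1). The shares of the members in their sum shifted accordingly. *Tpl94D* made up 7.20% ± 0.27 of the sum per kb in control and 2.46% ± 0.11 in *U2af38* RNAi, and *tHMG1* made up 12.8% ± 0.62 and 18.9% ± 0.83 (SD, n = 3).

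**Figure D5:**
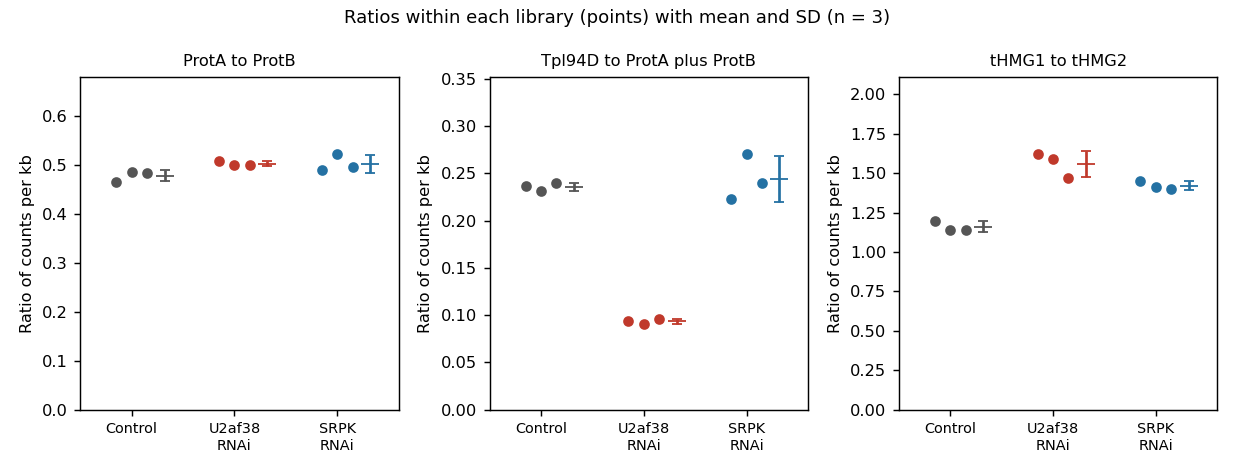
Ratios of counts per kb within each library (points), with the mean and SD of 3 libraries, for *ProtA* to *ProtB*, *Tpl94D* to *ProtA* plus *ProtB*, and *tHMG1* to *tHMG2*. The *Tpl94D* ratio is 0.236 in control and 0.0933 in *U2af38* RNAi on average, while the *ProtA* to *ProtB* ratio stays between 0.465 and 0.522 in all 9 libraries.

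The members were also compared with other genes of sperm chromatin. The counts of this and the later lists are to be read beside the shares of all genes tested. These were 37.5% lower and 44.7% higher in *U2af38* RNAi against control, and 21.1% and 20.3% in *SRPK* RNAi against control. In *U2af38* RNAi against *SRPK* RNAi they were 37.6% and 42.3%. A list of other candidate sperm nuclear basic protein genes held 14 names, of which 11 were tested. In *U2af38* RNAi, 9 of these were lower and 1 was higher, with a median log2 fold change of -1.54. These were 9 and 2 on library size, and 10 and 0 on ribosomal protein genes (0 higher at an unadjusted p under 0.05). *CG30356* had the lowest log2 fold change, -2.91, with 12.8 ± 0.65 CPM in *U2af38* RNAi and 96.1 ± 5.84 in control (SD, n = 3). *CG31010* and *CG34269* followed at -2.335 and -2.331, then *CG30056* at -1.90, *CG14835* at -1.775 and *CG42355* at -1.54. *ddbt*, which encodes a protein of paternal telomeres, stood at -0.96 and *Mst33A* at -0.91.

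In *SRPK* RNAi, 6 of the 11 were lower and 2 were higher, with a median of -0.23, and on library size alone 3 were lower. *ddbt* fell most, by 0.75 on the log2 scale (SE 0.07, adjusted p = 5.53e-06, edgeR). *CG30056* fell by 0.49, and *CG42355*, *CG34269*, *CG14835* and *CG31010* had log2 fold changes between -0.35 and -0.21. *Mst33A* (-0.15, adjusted p = 0.0557, edgeR) and *CG30356* (-0.18, adjusted p = 0.103, edgeR) did not pass. In *U2af38* RNAi against *SRPK* RNAi, 10 of the 11 were lower and 1 was higher. These were 8 and 2 on library size alone, with *ddbt* among the genes whose sign turned with the scaling.

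The *Mst77Y* genes are Y-linked copies of *Mst77F* with closely similar sequence, so their counts are uncertain. *Mst77Y-7* was read at 61.2 ± 2.22 CPM in control, 24.8 ± 0.65 in *U2af38* RNAi and 82.1 ± 10.7 in *SRPK* RNAi (SD, n = 3). It fell with *U2af38* RNAi (-1.30 on the log2 scale, adjusted p = 1.93e-08, edgeR) and rose with *SRPK* RNAi (0.42, adjusted p = 0.00146, edgeR). *Mst77Y-13* was read at 8.22 ± 1.94, 7.99 ± 1.17 and 11.4 ± 0.51 CPM and was higher in *SRPK* RNAi (0.46, adjusted p = 0.0344, edgeR). *Mst77Y-4*, at 1.88 ± 0.30, 3.26 ± 0.31 and 1.61 ± 0.53 CPM, was higher in *U2af38* RNAi (0.79, adjusted p = 0.0124, edgeR). The calls of the latter pair followed the scaling. On library size alone *Mst77Y-13* was higher in *U2af38* RNAi as well (0.59, adjusted p = 0.00380, edgeR). On ribosomal protein genes it was lower there (-0.49, adjusted p = 0.0226, edgeR) and not called in *SRPK* RNAi (0.38, adjusted p = 0.110, edgeR), and *Mst77Y-4* was not called in *U2af38* RNAi (0.34, adjusted p = 0.232, edgeR). *Mst77Y-7* kept its direction and its call in both knockdowns under each scaling tried. The copies were not tested against *Mst77F*.

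Genes for the exchange of histones, such as chaperones, remodellers and bromodomain proteins, formed a list of 22 names, of which 21 were tested. In *U2af38* RNAi 8 were lower and 8 higher, with a median log2 fold change of -0.06, and in *SRPK* RNAi 3 were lower and 9 higher, with a median of 0.13. *Acf*, a subunit of a nucleosome remodeller, fell by 2.02 (log2) with *U2af38* RNAi and by 0.31 with *SRPK* RNAi. *tbrd-3*, a testis bromodomain gene, fell by 1.00 and by 0.80. *nej*, the fly CBP acetyltransferase, rose by 0.95 and 0.47, and *Hira*, a chaperone of histone H3.3, rose by 0.81 and 0.22. *His3.3A*, which encodes that histone, rose by 0.75 in *U2af38* RNAi, and its value in *SRPK* RNAi was 0.08 (adjusted p = 0.374, edgeR). This list had no common direction, and its split followed the scaling. On library size alone 2 were lower and 16 higher in *U2af38* RNAi, and on ribosomal protein genes 13 were lower and 3 higher.

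Of 11 genes of paternal telomeres, centromeres and the sperm nucleus, 1 was lower and 6 were higher in *U2af38* RNAi, and 1 was lower and 5 were higher in *SRPK* RNAi. In *U2af38* RNAi the split moved to 0 lower (0 at an unadjusted p under 0.05) and 10 higher on library size alone, and to 5 and 5 on ribosomal protein genes. *dhd*, a germline thioredoxin, rose by 1.74 on the log2 scale in *U2af38* RNAi, from 3.70 to 12.3 CPM. *cid*, the centromeric histone H3, rose by 1.213 and its chaperone *cal1* by 1.201, while *mh* rose by 0.92 and *mod(mdg4)* by 0.81. In *SRPK* RNAi *mh* (0.68), *cal1* (0.37) and *mod(mdg4)* (0.30) were higher, and *cid* (-0.15, adjusted p = 0.449, edgeR) and *dhd* (0.03, adjusted p = 0.923, edgeR) did not pass.

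Marker genes of stages and cell types gave the setting of these values. Of 9 cup genes and related transcripts of late stages, 8 were lower and 1 was higher in *U2af38* RNAi, with a median log2 fold change of -1.30, and they summed to 6528 to 6885 CPM in control and 1652 to 1745 in *U2af38* RNAi. In *SRPK* RNAi 5 were lower and 1 higher, with a median of -0.17. Scaled on library size, the *U2af38* RNAi split became 5 lower and 2 higher, and the *SRPK* RNAi split 3 lower and 2 higher. Of 10 spermatocyte genes, 4 were lower and 3 higher in *U2af38* RNAi (median -0.15), and their sum was 3739 to 4085 CPM in control and 1986 to 2151 in *U2af38* RNAi. On library size alone 3 were lower and 6 higher, and on ribosomal protein genes 7 and 1. In *SRPK* RNAi 0 were lower by edgeR's test (1 at an unadjusted p under 0.05, and 1 with DESeq2) and 5 were higher. Of 5 spermatogonial genes, 1 was lower and 2 higher in *U2af38* RNAi, and in *SRPK* RNAi 0 were lower (0 at an unadjusted p under 0.05 and 0 with DESeq2) and 2 higher. Of 5 cyst and hub genes, 3 were lower and 1 higher in *U2af38* RNAi, and 1 was lower and 2 higher in *SRPK* RNAi. All 5 muscle sheath genes were lower in *SRPK* RNAi, and 3 were in *U2af38* RNAi, where 0 were lower on library size or upper quartiles (0 at an unadjusted p under 0.05) and 5 on ribosomal protein genes. Their median log2 fold change in *SRPK* RNAi was -0.72, a larger fall than the -0.29 of the members, in a tissue that was not targeted. Of the 6 testis identity genes, 6 were lower in *U2af38* RNAi (median -1.91, against -1.36 for the members). In *SRPK* RNAi 1 was lower (4 with DESeq2), with a median of -0.32. The spermatogonial split in *U2af38* RNAi was, on library size alone, 1 lower and 4 higher, and that of the cyst and hub genes 1 and 2. The part of cell composition in the members' differences was not tested.

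Genes whose profile over the 9 libraries was most like that of the members were sought among 11623 others with at least 1 CPM in control. Likeness was the root mean square distance between log2 CPM centred on the control mean. The 5 nearest to the mean profile of the members were *CG13471* (0.021), *CG5968* (0.028), *tomboy20* (0.036), *CG31988* (0.039) and *CG42355* (0.044), all on the log2 scale. *CG42355* is also in the list of candidate nuclear basic protein genes. Among the members themselves, *ProtA* and *ProtB* were the closest pair, at 0.066, and *Tpl94D* and *tHMG1* the most distant, at 1.23. Taken singly, the nearest other gene was *tomboy20* for *ProtA*, *robl62A* for *ProtB*, *Fer2LCH* for *Mst77F*, *CG8042* for *Prtl99C*, *CG13243* for *Tpl94D*, *CG17329* for *tHMG1* and *CG1902* for *tHMG2*. For *CG13243* the log2 fold changes against control were -2.80 and -0.22 in the 2 knockdowns, beside -2.85 and -0.29 for *Tpl94D*.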

How the data were processed

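The authors aligned reads of strand-specific, rRNA-depleted libraries, each made from 500 ng of total RNA, to dm6 with STAR 2.7.1a. They deposited raw fragment counts for 17575 genes from featureCounts 1.6.2, run on the FlyBase 6.37 annotation with the reverse-stranded setting and without multi-mapping or overlapping fragments. The 2 lanes of each library were summed here, since the chi-square between them, over its degrees of freedom, was 1.27 to 1.35, as against 5.65 to 31.9 between libraries of one genotype. Every column matched a sample.

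Genes were filtered with edgeR's filterByExpr and tested in all 9 libraries with edgeR 4.0.16 (quasi-likelihood, TMM scaling, Benjamini-Hochberg adjustment over 14941 genes, threshold 0.05) in R 4.3.3, with genotype as the only term. The SE was taken from the log2 fold change and the F statistic (its size over the root of F). Log2 CPM used a prior count of 2. DESeq2 1.42.0, other filters and scalings, a replicate block, 2 genotypes only, single lanes, left-out libraries and a minimum log2 fold change were alternatives, and Python 3.11.15 with SciPy 1.17.1 was used for ratios. Symbols and transcripts came from Ensembl release 115, in which 17512 genes were matched.

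The members and gene lists were chosen with earlier results of these data known. Named were all 7 members, the nuclear basic protein candidates with at least 1 CPM in control, the 5 largest differences in *U2af38* RNAi of each other list, the 5 genes nearest to the mean profile and 1 per member. *Mst77Y-16Psi*, *Ino80* and *comet* were not matched by symbol. *Mst77Y-9*, *Mst77Y-8Psi* and *SP* were too low to test. Sequences were not analysed here.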

Additional observations from a re-analysis of the deposited data

How the results depend on the processing

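With each library left out in turn, 7 members were lower in *U2af38* RNAi against control and in *U2af38* RNAi against *SRPK* RNAi, and 4 to 6 were lower in *SRPK* RNAi against control. DESeq2, the other filters, the 2-genotype models and single lanes called the same numbers of members (7, 6 and 7). With a minimum log2 fold change of 1 the numbers were 6, 0 and 4, and on library size alone 6, 6 and 5. Upper quartile scaling gave 7, 6 and 6, and *tHMG1* in *U2af38* RNAi against *SRPK* RNAi then had a log2 fold change of -0.09. On library size alone the sign turned for *Mst77F* in *SRPK* RNAi against control (0.034) and for *tHMG1* in *U2af38* RNAi against *SRPK* RNAi (0.11).

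The replicate numbers are shared by the genotypes, but deviations of same-numbered libraries did not go together for every number. Over genes, their correlation for numbers 1, 2 and 3 was 0.29, 0.28 and -0.12 between *U2af38* RNAi and control, and -0.40, -0.30 and 0.36 between *SRPK* RNAi and control. Between the knockdowns it was -0.46 to -0.17. In the model with a replicate block, 7, 6 and 7 members were lower, and 2 paternal telomere and sperm nucleus genes were lower in *U2af38* RNAi against control in place of 1.

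The other lists followed the scaling. The number of histone exchange genes lower in *U2af38* RNAi against control was 2 on library size, 5 on upper quartiles and 13 on 81 ribosomal protein genes, in place of 8. Against *SRPK* RNAi it was 4, 6 and 16, in place of 10. Of the paternal telomere and sperm nucleus genes, 0, 0 and 5 were lower against control under these scalings, in place of 1. Against *SRPK* RNAi 0, 0 and 4 were lower, and 1 with DESeq2, in place of 2. Of the nuclear basic protein candidates, 3 were lower in *SRPK* RNAi against control on library size, in place of 6. Where 0 were lower, 0 were also lower at an unadjusted p under 0.05. The cause was not tested.

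The *Tpl94D* to protamine ratio in *SRPK* RNAi against control differed by 0.05 on the log2 scale, and by -0.029 without *SRPK* RNAi 2. The *ProtA* to *ProtB* ratio in *U2af38* RNAi against *SRPK* RNAi differed by 0.003, by -0.0014 on lane 2 alone and by -0.016 to 0.032 with libraries left out, below 0 without *U2af38* RNAi 1, *SRPK* RNAi 1 or *SRPK* RNAi 3. The use of left-out libraries for ratios, of the accessory gland level and of other scalings for the marker genes was added after the data were seen. The members' counts of at least 2275 fragments leave depth no limit here. Scaling and the 3 libraries per genotype limit the smaller differences.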
